A study of Mus musculus with 16 samples.

Results

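The comparison described here is the effect of an inhibitor of the microRNA miR-199a-5p in lungs that were never injured. It used 6 of the 16 arrays of the series, chosen by their labels: 3 named PBS with LNA-miR-199a-5p and 3 named PBS with LNA-control. Messenger RNA of whole lungs was measured on a 1-colour Agilent mouse array, with 0.2 ug of total RNA labelled per sample, and the title of the series puts its question as the impact of silencing miR-199a-5p on lung fibrosis after bleomycin. Every group held C57BL/6 mice aged 9 to 12 weeks that had an oligonucleotide of locked nucleic acid (LNA), either against miR-199a-5p or a control, put into the trachea at 5 mg/kg on 3 occasions, 4 and 2 days before and 4 days after the vehicle PBS or bleomycin (1 unit/kg). The other 10 arrays came from bleomycin lungs, 5 with each LNA, and entered the same model. All 6 PBS lungs had therefore also received 3 instillations of an oligonucleotide, and no lung without LNA was analysed here. The day of collection, the sex and the sequences of both LNA oligonucleotides are not given in the sources used here, and the labels do not say that each array is a separate animal, so each p-value rests only on the spread among these samples, and that spread may be technical.

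A microRNA is loaded into an Argonaute protein and guides it to messenger RNAs whose 3′ untranslated regions match its seed, and such messages are as a rule destabilised and less translated. An LNA oligonucleotide complementary to the microRNA holds it in a tight duplex, so that messages it represses can rise. In lung fibrosis miR-199a-5p is known as a microRNA of activated fibroblasts that represses caveolin-1, a protein that restrains TGF-beta signalling by taking up its receptor. The array measured messenger RNAs; the level of miR-199a-5p itself was not analysed here.

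The mature microRNA that the inhibitor was directed against is shown first because every target of it is read through its seed, which stands in capitals (bases 2 to 8, counted from 1 at the 5′ end), as given by RefSeq on GRCm38.p6.
miR-199a-5p: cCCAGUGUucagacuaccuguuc
A message that pairs with the whole seed holds the 7 bases ACACUGG. The 3 mouse hairpins from which such a strand is cut are shown next because each lies within a gene that the array also measured, with the stretch that matches the mature strand in capitals.
Mir199a-1: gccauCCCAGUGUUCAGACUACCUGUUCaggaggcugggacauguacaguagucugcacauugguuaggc
Mir199a-2: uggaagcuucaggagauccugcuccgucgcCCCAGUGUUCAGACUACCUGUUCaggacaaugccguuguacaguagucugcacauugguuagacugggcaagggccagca
Mir199b: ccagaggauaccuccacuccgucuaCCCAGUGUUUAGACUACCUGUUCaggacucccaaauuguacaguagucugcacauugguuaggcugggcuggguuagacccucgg
Mir199a-1 lies on the minus strand of chr9:21496495-21496564 within Dnm2. Mir199a-2 lies on the plus strand of chr1:162217814-162217923 within Dnm3 and Dnm3os. Mir199b lies on the plus strand of chr2:32318460-32318569 within Dnm1, and its stretch differs from the mature miR-199a-5p at 1 base, C10U, which is outside the seed.

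Values are log2 intensities, so a difference of 1 is a change of 2-fold, and 20863 genes were tested. Within a group, the least alike arrays correlated at 0.996 among the PBS controls and at 0.985 among the PBS lungs with the inhibitor. The RNA integrity number was 8 to 9 in both PBS groups, with a mean of 8.33 in each. Lung markers were present at like levels in both groups: the club cell secretoglobin Scgb1a1 read 18.07 to 18.15 on the 6 arrays, the surfactant gene Sftpa1 16.69 to 16.93 and the alveolar type 1 marker Ager 13.88 to 14.23. The surfactant gene Sftpc stood at 18.32, the top of the scale, on all 6 arrays, so no difference in it could be measured.

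2 PBS lungs with the inhibitor also carried transcripts of tissue outside the lung. The pituitary hormone gene Prl read 11.43 and 10.38 on inhibitor replicates 1 and 2 against 5.43 on replicate 3, 5.08 to 5.20 on the 3 control arrays and 4.82 to 5.52 on the 10 bleomycin arrays. Growth hormone (Gh) read 10.84 and 9.80 on the same 2 arrays against 5.46 on replicate 3, and the shared hormone subunit Cga read 9.23 and 8.40 against 5.08 to 5.24. A second, dimmer Cga probe differed between the PBS groups by 0.11 only, against 2.49 for the one shown. The pituitary list was drawn up after these values were seen, with 10 of its 11 genes measured, and its summed level on the log2 scale was 9.55 to 9.56 in controls and 9.72 to 12.67 with the inhibitor. Brown fat, squamous epithelium and skeletal muscle varied inside both groups: the brown fat gene Ucp1 read 11.37, 10.55 and 5.57 on control replicates 1 to 3 and 13.86 and 5.56 on inhibitor replicates 1 and 3. The keratin Krt13 read 13.53, 12.99 and 11.38 in controls and 14.81, 14.01 and 5.59 with the inhibitor, a difference of -1.17, while its second probe differed by 0.06. The summed level of 12 brown fat genes was 13.74 to 14.47 in controls and 13.78 to 16.12 with the inhibitor, that of 24 squamous genes 15.27 to 16.70 and 14.34 to 17.73, and that of 18 skeletal muscle genes 14.37 to 15.70 and 11.98 to 16.94. Inhibitor replicate 3 was the lowest or nearly the lowest array for each of these tissues, and inhibitor replicate 1 the highest. Heart muscle genes were at 16.31 to 16.49 in controls and 16.52 to 16.65 with the inhibitor, so replicate 3 held less of some tissues and not of all. Beside some of the results below stand values without those arrays. Others come from a fit with tissue covariates, which holds the levels of the squamous, brown fat and heart lists in the model. Pituitary transcripts were not among these covariates.

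**Figure D1:**
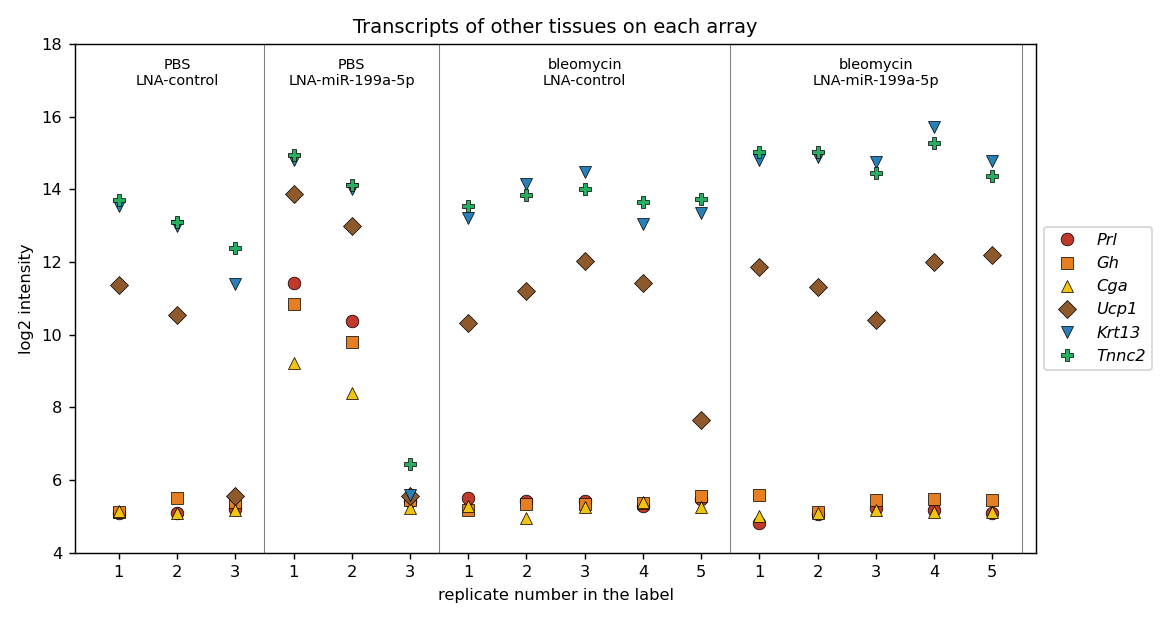
Log2 intensity of 6 genes of other tissues on each of the 16 arrays, ordered by group and by the replicate number in the label. The pituitary genes Prl, Gh and Cga stand at 8.40 to 11.43 on inhibitor replicates 1 and 2 of the PBS lungs and at 5.60 or less on every other array, and Ucp1 reads 5.57 and 5.56 on the PBS arrays numbered 3.

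Few transcripts were called in uninjured lungs: with a threshold of 0.05 on limma's adjusted p, 10 of 20863 genes passed (0.0479%), of which 7 were higher (0.0336%) and 3 lower (0.0144%) with the inhibitor. In bleomycin lungs, with 5 arrays a group, 5188 genes passed (24.9%), and the standard error of a gene was at the median 0.117 in PBS lungs and 0.0908 in bleomycin lungs. At an unadjusted p under 0.05 there were 1526 genes in PBS lungs (7.31%). The 3 inhibitor arrays lay wholly above the 3 control arrays for 2119 genes (10.2%) and wholly below for 1647 (7.89%). Point estimates reached 2-fold for 39 genes, of which 15 did not overlap and 3 were called, namely Cxcr1, Il22ra2 and Cyyr1. Cyclic loess scaling in place of the deposited one gave 15 genes, 8 higher and 7 lower.

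The 10 genes fall into 3 kinds by what they are known to do: genes of blood cells (Cxcr1, Camp, Kel, Rhd), genes of secreted signals and their receptors (Il33, Il22ra2, Gdf15), and genes of RNA control and membranes (Ddx6, Atp13a3, Cyyr1). Cxcr1, Kel, Rhd and Il22ra2 had a mean below the median of all genes (8.47) and fell outside the rule for named genes, so they are named because they were called, after their values were seen. The same-numbered arrays of the PBS groups deviated together (correlations of 0.411, 0.108 and 0.497 for numbers 1 to 3), and results are given both ways, without a block and with one for the number in the label. With the block over numbers 1 to 5, the 10 called genes became 3 (Cxcr1, Cyyr1 and Gdf15, 0.0144%), and with each same-numbered pair as a block, 0 by limma, with 1212 genes at an unadjusted p under 0.05. The 6 PBS arrays fitted alone called 0 genes by limma (2317 at an unadjusted p under 0.05), and with the number as a block they called 2 (0.00959%), Cxcl13 and Vsig4, neither among the 10. A balanced block leaves each difference as it is and moves the error only.

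**Figure D2:**
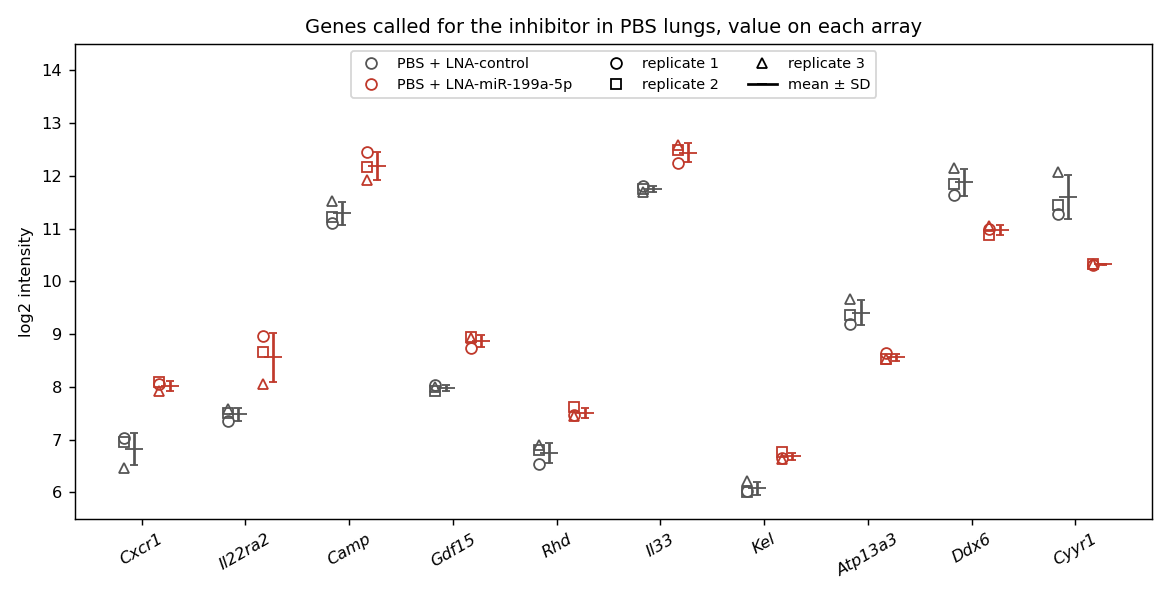
Log2 intensity of the 10 called genes on each of the 3 PBS arrays with LNA-control and the 3 with LNA-miR-199a-5p; symbols mark the replicate number, and bars give the mean ± SD of 3 arrays. No gene of the 10 has overlapping groups. The gap is wide for Cyyr1, Cxcr1 and Gdf15. The arrays numbered 3 differ by only 0.39 for Camp, 0.41 for Kel and 0.48 for Il22ra2.

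Among the blood cell genes, Cxcr1 encodes a receptor for chemokines that draw neutrophils. It read 7.03, 6.95 and 6.47 on control replicates 1 to 3 and 8.05, 8.10 and 7.92 on inhibitor replicates 1 to 3, so all inhibitor arrays lay about a log2 unit above all controls. The rise was 1.21 ± 0.14 (SE, 3 and 3 arrays; 2.31-fold, limma adjusted p = 0.00356; 0.0452 with the block over numbers and 0.0693 with pairs). In bleomycin lungs Cxcr1 stood at a mean of 7.96 with LNA-control and 8.24 with the inhibitor, a difference of 0.27 ± 0.11 that did not pass (adjusted p = 0.0783), and the 2 effects differed by -0.93 ± 0.18 (adjusted p = 0.00592).

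Camp encodes cathelicidin, an antimicrobial peptide stored in neutrophil granules. It read 11.11, 11.23 and 11.53 in controls and 12.45, 12.16 and 11.92 with the inhibitor. The groups did not overlap, but the gap between same-numbered arrays ran from 1.35 for number 1 to 0.39 for number 3. The rise was 0.89 ± 0.14 (adjusted p = 0.0289; 0.141 with the block over numbers and 0.387 with pairs), and without the 2 inhibitor arrays that held pituitary transcripts it was 0.63 ± 0.17 (adjusted p = 0.225). With tissue covariates it was 1.04 ± 0.18 (adjusted p = 0.0991). A second, dimmer Camp probe differed by 0.96.

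Kel and Rhd encode surface proteins of red blood cells, the Kell and Rh blood group antigens. Kel read 6.02, 6.00 and 6.22 in controls and 6.66, 6.76 and 6.63 with the inhibitor, a rise of 0.60 ± 0.09 (adjusted p = 0.0329; 0.149 with the block over numbers). Rhd read 6.54, 6.81 and 6.91 in controls and 7.47, 7.62 and 7.45 with the inhibitor, a rise of 0.76 ± 0.13 (adjusted p = 0.0368; 0.141 with the block). Neither pair of groups overlapped, and both genes are dim. Both also rose in bleomycin lungs, by 0.74 ± 0.07 and 0.79 ± 0.10 (adjusted p = 6.55e-06 and 4.74e-05).

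Il33 encodes an alarmin that alveolar type 2 cells and stromal cells keep in the nucleus and release on damage. It read 11.80, 11.75 and 11.70 in controls and 12.24, 12.49 and 12.59 with the inhibitor, with little spread among the controls. The rise was 0.69 ± 0.11 (1.61-fold, adjusted p = 0.0368; 0.125 with the block over numbers and 0.201 with pairs). In bleomycin lungs Il33 did not pass (-0.06 ± 0.09, adjusted p = 0.665), and the 2 effects differed by -0.75 ± 0.14 (adjusted p = 0.00598). Of 16 genes of type 2 epithelium, Il33 was the only one called, and the median of the list was 0.03.

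Il22ra2 encodes a soluble protein that binds interleukin 22 and keeps it from its receptor. It read 7.35, 7.51 and 7.58 in controls and 8.97, 8.66 and 8.06 with the inhibitor. The rise was 1.08 ± 0.18 (2.12-fold, adjusted p = 0.0368; 0.16 with the block over numbers and 0.354 with pairs). The 2 higher inhibitor arrays were those with pituitary transcripts, and without them the difference was 0.58 ± 0.18 (adjusted p = 0.37). With tissue covariates it was 1.21 ± 0.16 (adjusted p = 0.0205), and Il22ra2 was the only one of the 10 genes still called in that fit. In bleomycin lungs Il22ra2 rose by 0.96 ± 0.14 (adjusted p = 0.000185).

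Gdf15 encodes a secreted stress cytokine whose gene is a target of p53. It read 8.03, 7.92 and 7.99 in controls and 8.74, 8.95 and 8.93 with the inhibitor, tight within both groups. The rise was 0.89 ± 0.14 (1.85-fold, adjusted p = 0.0289, and 0.0452 with the block over numbers and 0.149 with pairs). Over 32 alternative settings the rise of Gdf15 ran from 0.66 to 0.96, and the call was lost in 13. In bleomycin lungs it went the other way: the mean was 10.85 with LNA-control and 8.92 with the inhibitor, so that it fell by 1.92 ± 0.11 (adjusted p = 1.06e-08). With the inhibitor, Gdf15 thus stood at 8.74 to 8.95 in PBS lungs and 8.77 to 9.07 in bleomycin lungs, and the 2 effects differed by -2.81 ± 0.17 (adjusted p = 1.42e-07).

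Cyyr1 encodes a small membrane protein rich in cysteine and tyrosine. It read 11.28, 11.45 and 12.07 in controls and 10.31, 10.32 and 10.33 with the inhibitor, where the 3 arrays were nearly equal. Cyyr1 fell by 1.28 ± 0.15 (2.43-fold, adjusted p = 0.00356; 0.0452 with the block over numbers and 0.0693 with pairs). In bleomycin lungs it fell by 1.15 ± 0.12 (adjusted p = 9.81e-06), and the difference between the 2 effects was 0.13 ± 0.20 (adjusted p = 0.755).

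Ddx6 encodes an RNA helicase of processing bodies, where messages repressed by microRNAs collect. It read 11.64, 11.84 and 12.15 in controls and 10.99, 10.88 and 11.05 with the inhibitor. Ddx6 fell by 0.90 ± 0.13 (adjusted p = 0.0289; 0.125 with the block over numbers and 0.149 with pairs) and fell by 1.65 ± 0.10 in bleomycin lungs (adjusted p = 3.79e-08), a larger fall there by the test of the difference (-0.74 ± 0.17, adjusted p = 0.0163). Atp13a3, which encodes a polyamine transporter of endosomes, read 9.20, 9.36 and 9.66 in controls and 8.64, 8.52 and 8.52 with the inhibitor. Atp13a3 fell by 0.85 ± 0.14 (adjusted p = 0.0368; 0.0925 with the block over numbers and 0.15 with pairs) and fell by 1.20 ± 0.11 in bleomycin lungs. Control replicate 3 was the highest array for Cyyr1, Ddx6 and Atp13a3 alike, and without it Cyyr1 was still called (-1.04, adjusted p = 0.00479) while Ddx6 (-0.77, adjusted p = 0.126) and Atp13a3 (-0.72, adjusted p = 0.251) were not.

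How many genes passed turned on single arrays. Without PBS control replicate 1, 8 genes passed, of which 1 was higher and 7 lower, and 4 of these were among the 10 (Cxcr1, Cyyr1, Ddx6 and Atp13a3), so that the balance of 7 higher and 3 lower turned round. Left out in turn, PBS control replicates 2 and 3 gave 2 and 4 called genes, PBS inhibitor replicates 1 and 2 gave 3 and 2, and bleomycin arrays gave 6 without LNA-control replicate 1 and 2 without LNA-miR-199a-5p replicate 2. Without PBS inhibitor replicate 3, which had less squamous and skeletal muscle transcript than any other PBS array and little pituitary transcript, 121 genes passed, 113 of them higher, among them Prl, Gh and Cga. Cxcr1 and Cyyr1 were called with any 1 of the 16 arrays left out (highest adjusted p 0.0335). With tissue covariates both lost the call, at 1.05 ± 0.20 and -1.21 ± 0.23 (adjusted p = 0.158 for each). Camp, Ddx6 and Kel lost the call without 5 of the 16 arrays, Gdf15 without 6, Il33, Atp13a3 and Rhd without 9 and Il22ra2 without 13.

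Next to the called genes, the genes of smallest p with a mean above the median and no overlap were taken up to 10 in each direction. None of these passed, so only their values are given. On the higher side were Gpnmb (0.69 ± 0.12, adjusted p = 0.0578), a lysosomal membrane protein of lipid-laden macrophages, and Ctsk (0.62 ± 0.12, adjusted p = 0.101), a collagen-degrading protease. Trem2, a lipid receptor of macrophages, stood at 0.49 ± 0.11 (adjusted p = 0.216), and the lung epithelial transcription factor Irx1 at 0.57 ± 0.11 (adjusted p = 0.0754). Coq10b, Stbd1 and Spast lay at 0.48, 0.53 and 0.30. On the lower side was Ahr, the aryl hydrocarbon receptor, which read 12.96, 12.91 and 12.91 in controls and 12.47, 12.54 and 12.54 with the inhibitor (-0.41 ± 0.08, adjusted p = 0.0754). Its arrays were tight within groups and apart between them. Tut4, an enzyme that adds uridines to microRNA precursors, stood at -1.20 ± 0.22 (adjusted p = 0.0754), but its second, dimmer probe differed by 0.07 only. The pan-leukocyte gene Ptprc (CD45) stood at -0.48 ± 0.10 (adjusted p = 0.143), the mesothelial genes Upk3b and Cldn15 at -0.50 and -0.41, and Foxn3 and Lrrc8b at -0.62 and -1.08.

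Gene lists are described by how many of their measured members did not overlap between the 3 and 3 arrays and by their median difference, against a median of 0.01 and shares of 10.2% higher and 7.89% lower over all genes. Of 15 neutrophil genes, 6 lay higher without overlap and 1 lower, 2 were called, and the median was 0.19. Besides Cxcr1 and Camp, the granule enzyme gene Mpo read 8.10, 8.12 and 8.10 in controls and 9.33, 8.88 and 8.58 with the inhibitor (0.82 ± 0.17, adjusted p = 0.123). Other granule genes were Ngp (0.57) and Ltf (0.79), while the receptor genes Cxcr2 and Csf3r of mature neutrophils stood at -0.17 and -0.16. The median of the list against the control mean was 0.35, 0.18 and 0.01 on inhibitor replicates 1, 2 and 3, highest on the array with the most pituitary and brown fat transcripts, and with tissue covariates the median was 0.06. In whole lung, more cells of a type and more RNA per cell cannot be told apart. Of 9 red blood cell genes, a list that does not hold Kel or Rhd, 3 lay higher without overlap and the median was 0.08 (-0.10 with tissue covariates), with the haemoglobin gene Hba-a1 at 0.00 and Alas2 at -0.15.

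Among stress genes, more lay above the controls than below. Of 21 p53 targets, 9 lay higher without overlap (42.9%) and 1 lower, with a median of 0.14 (0.07 with tissue covariates) and Gdf15 as the only one called. Aen, a p53-induced nuclease, read 12.25, 12.29 and 12.30 in controls and 12.54, 12.54 and 12.69 with the inhibitor (0.31 ± 0.09, adjusted p = 0.378). Psrc1 stood at 0.48 ± 0.14 and the cell cycle inhibitor Cdkn1a at 0.54 ± 0.24. Of 12 heat shock genes, 7 lay higher without overlap (58.3%) and 1 lower, none was called, and the median was 0.26 (0.08 with tissue covariates). The co-chaperone gene Dnajb1 read 12.94, 12.89 and 12.88 in controls and 13.31, 13.66 and 13.60 with the inhibitor (0.62 ± 0.15, adjusted p = 0.222), and the inducible Hsp70 gene Hspa1a 7.26, 7.37 and 7.20 against 7.67, 8.67 and 9.35. Both lists lay highest on inhibitor replicate 3 (medians of 0.22 for p53 targets and 0.37 for heat shock).

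Of 14 genes of the glucocorticoid response, 7 lay higher without overlap and 1 lower (median 0.23), and of 17 clock genes 7 lay higher and 2 lower (median 0.15). None was called in either list. The clock genes Per2 and Nfil3 stood at 0.54 ± 0.19 and 0.44 ± 0.15. Of 20 genes of the respiratory chain, all 20 had a difference above 0 and 8 lay higher without overlap (median 0.17), again with none called; the medians on inhibitor replicates 1 to 3 were 0.24, 0.18 and 0.06, and the array with the most brown fat transcripts was the highest. With tissue covariates the median was 0.14. Of 28 cell division genes 7 lay higher without overlap and none lower (median 0.16), with Cdk1 at 0.51 ± 0.43.

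Among natural killer, B cell, T cell and mesothelial genes, more lay below the controls than above. Of 14 natural killer and cytotoxic genes, 6 lay lower without overlap (42.9%) and none higher, none was called, and the median was -0.18. Klrb1c, a receptor that marks natural killer cells in this strain, read 7.92, 7.88 and 7.62 in controls and 7.24, 7.48 and 7.40 with the inhibitor (-0.43 ± 0.11, adjusted p = 0.334). The granzyme gene Gzmb stood at -0.43 ± 0.17 and the granule gene Nkg7 at -0.36 ± 0.15. Of 15 B cell and plasma cell genes, 6 lay lower without overlap and none higher, with a median of -0.22 that was 0.01 with tissue covariates. The B cell genes Fcer2a, Cd37 and Cd79b stood at -0.53, -0.45 and -0.35, each with the 3 inhibitor arrays below the 3 controls, and none passed. Of 15 T cell genes 2 lay lower without overlap (median -0.08, and -0.70 with tissue covariates). The 7 thymocyte genes, 5 of them under 6 on all 6 arrays, all overlapped (median 0.02, and -1.15 with tissue covariates). Of 10 mesothelial genes, 5 lay lower without overlap and none higher, with a median of -0.26. Upk3b read 9.97, 10.03 and 10.04 in controls and 9.56, 9.62 and 9.37 with the inhibitor (-0.50 ± 0.10, adjusted p = 0.101), and Muc16 stood at -0.40 ± 0.14.

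**Figure D3:**
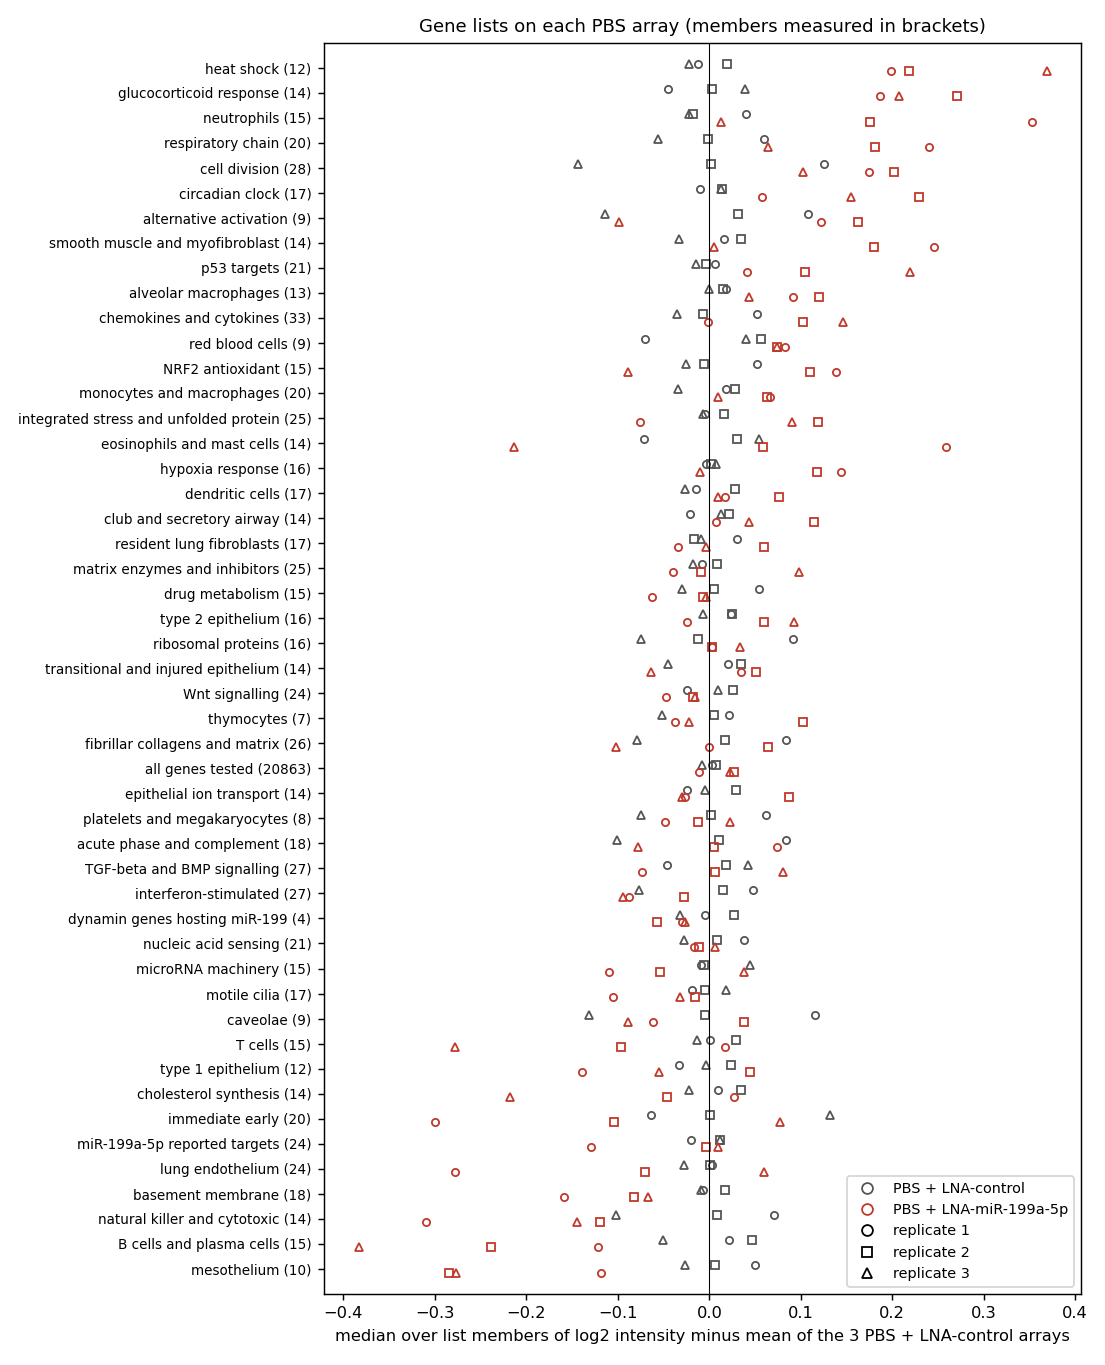
Median over the measured members of a gene list, on each of the 6 PBS arrays. Values are log2 intensity minus the mean of the 3 PBS arrays with LNA-control. Lists are ordered by their median difference, and all genes tested are shown for scale. The squamous, fat, heart muscle, skeletal muscle, cartilage, thyroid, nerve and pituitary lists are not drawn. The heat shock and glucocorticoid lists lie above 0 and the mesothelium and B cell lists below 0 on all 3 inhibitor arrays, while neutrophil, respiratory chain and lung endothelium lists differ between the 3 inhibitor arrays.

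Macrophage genes split. Of 20 monocyte and macrophage genes, 7 lay higher without overlap and 4 lower, none was called, and the median was 0.06 (0.14 with tissue covariates). Gpnmb read 8.95, 8.88 and 8.81 in controls and 9.75, 9.56 and 9.40 with the inhibitor, and Trem2 9.61, 9.60 and 9.39 against 9.98, 10.04 and 10.03. For the chemokine receptors of monocytes all 3 inhibitor arrays lay below the controls: Cx3cr1 stood at -0.30 and Ccr2 at -0.38. Of 13 genes of alveolar macrophages, 3 lay higher without overlap and 1 lower, and none was called. Of these genes 8 were above 0 and 5 below, with a median of 0.11. The scavenger receptor Marco, the highest of the list, read 11.97, 11.65 and 11.32 in controls and 12.88, 12.48 and 12.07 with the inhibitor. Marco's difference of 0.83 ± 0.22 did not pass (adjusted p = 0.334), while the same-numbered arrays differed by 0.90, 0.84 and 0.76 (adjusted p = 0.387 with pairs as a block).

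No matrix gene was called in uninjured lungs. Of 26 genes of fibrillar collagens and matrix, 1 lay higher and 4 lower without overlap, none was called, and the median was 0.02. Col1a1, the main chain of type I collagen, read 13.22, 13.28 and 13.28 in controls and 13.18, 13.16 and 13.02 with the inhibitor (-0.14 ± 0.18, 95% interval -0.53 to 0.24). The osteopontin gene Spp1 stood at 0.30 ± 0.24 (95% interval -0.21 to 0.81) and the smooth muscle actin gene Acta2 at 0.16 ± 0.18. Of 18 basement membrane genes 8 lay lower without overlap (44.4%) and none higher, with a median of -0.10 and Col4a4, a chain of type IV collagen, at -0.41 ± 0.12 (adjusted p = 0.406). Of 24 lung endothelial genes 5 lay lower without overlap (median -0.10), among them Tek and Esm1 at -0.26 and -0.43; the medians on inhibitor replicates 1 to 3 were -0.28, -0.07 and 0.06.

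Genes on the miR-199a-5p pathway itself came next. Of 24 genes reported as targets of miR-199a-5p, 2 lay higher and 4 lower without overlap, none was called in either direction, and 14 of 24 were below 0 (median -0.10). The medians on inhibitor replicates 1 to 3 were -0.13, -0.00 and 0.01, so the value rested mostly on replicate 1; it was 0.01 without replicates 1 and 2 and -0.06 with tissue covariates. Cav1, the caveolin-1 gene, read 10.99, 11.21 and 11.28 in controls and 10.82, 10.94 and 11.05 with the inhibitor, a difference of -0.22 ± 0.12 (adjusted p = 0.737). Its 95% interval ran from -0.47 to 0.02, and each inhibitor array lay below the control of the same number. The discoidin receptor gene Ddr1 and the Notch ligand gene Jag1 both stood at 0.21, with the 3 inhibitor arrays above the controls, and the Wnt receptor gene Fzd6, the transcription factor gene Ets1 and the kinase gene Gsk3b at -0.31, -0.44 and -0.25, with the 3 inhibitor arrays below. Of 9 caveola genes 1 lay lower without overlap (median -0.06; 0.04 with tissue covariates).

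The genes whose coordinates span the hairpins shown above were not called either. The strands of these genes were not compared with those of the hairpins. Dnm3os, the transcript that spans Mir199a-2 and is known to give rise to the microRNA in fibroblasts, was dim, at 6.04, 6.08 and 6.27 in controls and 6.31, 6.38 and 6.23 with the inhibitor (0.17 ± 0.13), and its other probes differed by 0.13 and -0.14. Dnm3 stood at -0.31 ± 0.09 (adjusted p = 0.378), Dnm2 at -0.16 ± 0.17 and Dnm1 at 0.08 ± 0.10 (second probe -0.02). Of 15 genes of the microRNA machinery, 1 lay higher and 2 lower without overlap (median -0.05). The 2 lower ones were Tut4 and the Argonaute gene Ago2 (10.48, 10.52 and 10.73 in controls and 10.38, 10.35 and 10.32 with the inhibitor, -0.23 ± 0.10).

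An oligonucleotide in the airway can meet sensors of nucleic acids, and both LNA groups received one. Of 27 interferon-stimulated genes none lay higher without overlap and 5 lay lower (median -0.02; -0.09 with tissue covariates), with none called. Ifit2 read 8.78, 8.75 and 8.79 in controls and 8.57, 8.61 and 8.58 with the inhibitor, and Mx2 and Gbp2 stood at -0.23 and -0.28. Of 33 chemokine and cytokine genes, 5 lay higher and 4 lower, with Il33 as the only one called. The chemokine gene Cxcl12 read 13.79, 13.75 and 13.72 in controls and 13.44, 13.44 and 13.46 with the inhibitor (-0.30 ± 0.09, adjusted p = 0.433), and the macrophage growth factor gene Csf1 stood at -0.26 ± 0.09.

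The inhibitor effect in PBS lungs was then set beside that in bleomycin lungs, which rests on other arrays. Of the 10 genes called in PBS lungs, 7 were called in the same direction in bleomycin lungs, 1 in the opposite direction (Gdf15) and 2 were not called (Cxcr1 and Il33). The 7 shared genes were 0.135% of the 5188 called in bleomycin lungs. Over all genes the 2 effects had a Pearson correlation of 0.02 and a Spearman correlation of -0.02, given as a description across genes, which are not independent. The test of the difference passed for 1462 genes (7.01%, with 947 under the block over numbers and 471 with pairs). That count was 844, 632 and 689 without PBS control replicates 1, 2 and 3, 818 and 840 without PBS inhibitor replicates 1 and 2, and 913, 2215, 918 and 912 without bleomycin control replicates 1, 3, 4 and 5. With tissue covariates it was 42. Of the 10 called genes, 4 passed that test in the main fit (Cxcr1, Ddx6, Gdf15 and Il33). The called genes, those next in line and the list members of smallest p were chosen by their effect in PBS lungs. The difference subtracts that same effect, so the choice itself can enlarge the difference for these genes.

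**Figure D4:**
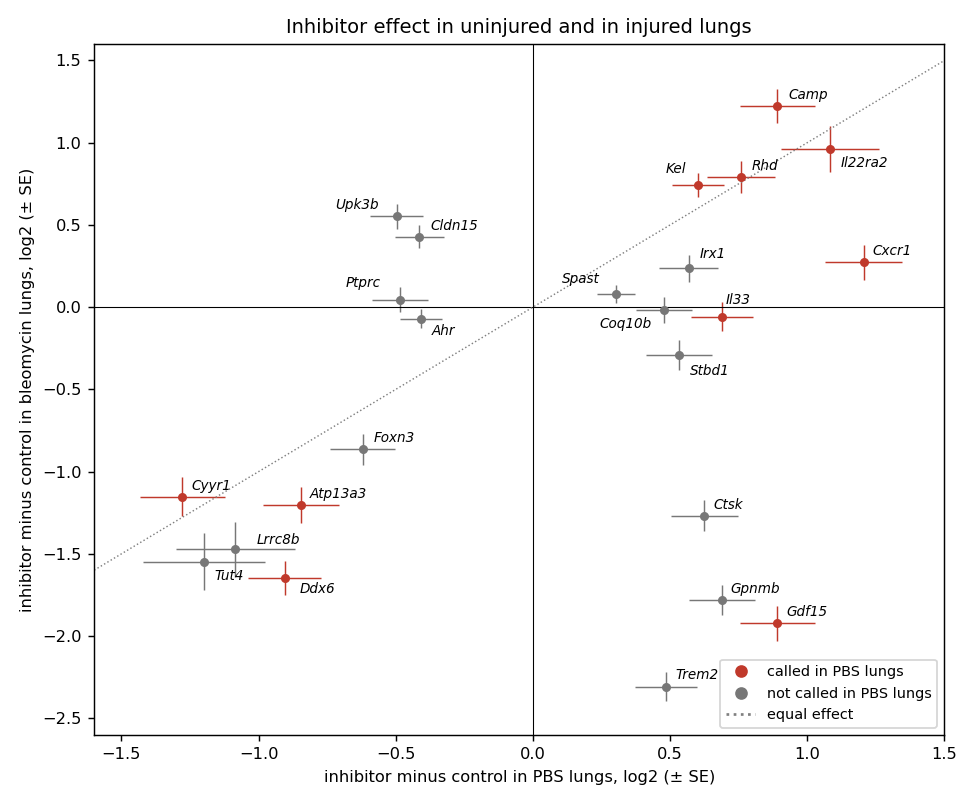
Inhibitor minus control in bleomycin lungs (log2 ± SE, 5 and 5 arrays) against the same in PBS lungs (3 and 3 arrays) for the 24 genes named as called or next in line. Cyyr1, Ddx6, Atp13a3, Camp, Il22ra2, Kel and Rhd lie in the quadrants of equal direction, and Gdf15, Gpnmb, Ctsk and Trem2 lie at lower right, higher in PBS lungs and lower in bleomycin lungs.

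Several macrophage, p53 and division genes with values above the controls in PBS lungs fell with the inhibitor in bleomycin lungs. Trem2, at 0.49 in PBS lungs, fell by 2.31 ± 0.09 in bleomycin lungs, Gpnmb fell by 1.78 ± 0.09 and Ctsk fell by 1.27 ± 0.09, and the effects differed by -2.79, -2.47 and -1.89 (adjusted p of 2.85e-08, 1.42e-07 and 3.21e-06). In the monocyte and macrophage list 0 of 20 members were called higher and 18 lower in bleomycin lungs, against shares of 13.4% higher and 11.4% lower over all genes, and the difference passed for 13 of 20. In the p53 list 1 member was called higher and 14 of 21 lower there, and the difference passed for 11. Psrc1, at 0.48 in PBS lungs, fell by 2.08 ± 0.11 (difference -2.56 ± 0.18, adjusted p = 5.9e-07). In the cell division list 24 of 28 fell in bleomycin lungs, and the difference passed for 10.

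Natural killer, B cell and mesothelial genes showed the reverse. T cell genes did not: 1 of 15 was called higher in bleomycin lungs, the median there was -0.13 and the difference passed for none. None of the 7 thymocyte genes was called there (median -0.57). Of the natural killer list 11 of 14 members were called higher and none lower in bleomycin lungs, and the difference passed for 7. Klrb1c, at -0.43 in PBS lungs, rose by 0.49 ± 0.09 in bleomycin lungs (difference 0.92 ± 0.14, adjusted p = 0.00169). Of the B cell list 9 of 15 rose and the difference passed for 8, with Cd37 at a difference of 1.42 ± 0.27 (adjusted p = 0.00592). Of the mesothelial list 5 of 10 rose and the difference passed for 5, with Upk3b rising by 0.55 ± 0.08 (difference 1.05 ± 0.12, adjusted p = 0.000162). Of the neutrophil genes, 7 of 15 rose and 1 fell in bleomycin lungs, the difference passed for 6, and Mpo rose by 1.25 ± 0.13. Col1a1 fell by 1.12 ± 0.14 and Spp1 fell by 3.49 ± 0.19 in bleomycin lungs, against -0.14 and 0.30 in PBS lungs, and both differences passed (-0.98 ± 0.23, adjusted p = 0.0195, and -3.80 ± 0.30, adjusted p = 2.81e-06).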

How the data were processed

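The deposited table holds log2 intensities of 16 arrays, made by the authors with limma (version not given), per the submitters' processing notes. The sorted deposited log2 values of the arrays lay within 0.0974 of each other, so they were already quantile normalized; background correction is not given in the sources used here. Of 62976 spots, 31465 had a gene symbol and 31511 had none and were not used. Symbols were updated through RefSeq accessions for 29050 probes (2933 changed). Where a gene had more than 1 probe (6086 genes), the brightest on average across the 16 arrays stood for it, which left 20863 genes.

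One limma model (3.58.1, R 4.3.3) described the 16 arrays by 4 group means (lmFit, then eBayes), two-sided, with Benjamini-Hochberg adjustment over all genes and a threshold of 0.05. The code was tested on simulated data. Contrasts were inhibitor minus control in PBS lungs, in bleomycin lungs, and their difference. The replicate numbers come from the labels, which do not say what they mark. Same-numbered PBS arrays deviated together in all 3 pairs (0.411, 0.108 and 0.497), so results are given with and without the number as a block. Inhibitor replicate 2 correlated better with control replicate 1 (0.287), and with 3 arrays a group these correlations are not independent of each other. Whether the number marks a true pairing was not tested.

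Named genes are the called ones, the 10 rises and 10 falls of smallest p with a mean above the median and no overlap, up to 3 members per list, and 7 others (Cav1, Dnm3os, Dnm1, Col1a1, Spp1, Acta2, Sftpc); some further list members are named after their values were seen. The comparison and the 56 gene lists (975 members, 926 measured) were chosen with earlier results of these data known. Of the lists, only part are described. The PBS comparison rests on 3 and 3 arrays, and what limits its precision was not tested. Alternatives are in the closing section.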

Additional observations from a re-analysis of the deposited data

Results flagged for a closer look

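Each value here is the inhibitor effect in bleomycin lungs minus that in PBS lungs on the log2 scale. For each gene listed, limma's test of that difference passed at an adjusted p under 0.05. Genes named by their effect in PBS lungs can show an enlarged difference through that choice, as the difference subtracts the same effect. Members of only part of the gene lists were looked through, so the listing is not complete. Bmp6 (1.42) and S100b (-1.38), for example, also passed and belong to lists that were left out. Among the called genes the differences were -2.81 for Gdf15, -0.93 for Cxcr1, -0.75 for Il33 and -0.74 for Ddx6. For macrophage and matrix genes they were -2.79 for Trem2, -2.47 for Gpnmb, -1.89 for Ctsk, -3.80 for Spp1, -0.98 for Col1a1, -0.55 for Postn and -1.12 for Mfap4. For p53, stress and division genes they were -2.56 for Psrc1, -0.95 for Aen, -1.32 for Cdkn1a, -1.29 for Mt2, -2.32 for Cdk1 and -0.98 for Kif23. Coq10b and Stbd1 differed by -0.50 and -0.82.

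On the positive side were the lymphoid genes Klrb1c (0.92), Gzmb (1.14), Nkg7 (0.93), Fcer2a (0.96), Cd37 (1.42) and Cd79b (1.31), and the pan-leukocyte gene Ptprc (0.53). The mesothelial genes Upk3b, Muc16, Lrrn4 and Cldn15 differed by 1.05, 0.83, 0.57 and 0.84. The endothelial genes Tek, Esm1 and Ednrb differed by 0.85, 1.47 and 1.01, and Ahr, Csf1 and Gbp2 by 0.34, 0.52 and 0.87. Single arrays that stand apart were not looked for by a formal rule in the PBS groups, which hold 3 arrays each.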

How the results depend on the processing

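The 10 genes called in PBS lungs became 3 with a replicate block over numbers 1 to 5, 0 with each pair as a replicate block, 2 with pairs as a random block, 0 with the 6 PBS arrays alone (2317 genes at an unadjusted p under 0.05) and 2 with those 6 arrays and the replicate block (Cxcl13 and Vsig4, neither among the 10). They became 394 with array weights (270 higher), 5 with the squamous, brown fat and heart lists as covariates (1 shared, Il22ra2), and, in settings chosen after seeing the data, 31 without both PBS arrays numbered 3 (7 shared) and 71 without the 2 inhibitor arrays with pituitary transcripts (3 shared). Leaving out 1 array at a time gave 2 to 121. The 1462 genes whose effects differed between bleomycin and PBS lungs became 947, 471 and 960 under the same 3 blocks, 3862 with array weights, 733 with RNA integrity as a covariate, 42 with the tissue lists, 513 without both arrays numbered 3 and 780 without the pituitary arrays, and 632 to 2215 with 1 array left out. Median centring, cyclic loess, mean of probes, low-signal filters, a robust trend and every probe as a feature kept the first count at 7 to 15. Over all alternatives no called gene changed sign. Among 316 values of the 10 called genes, 191 kept the call and 125 lost it. Of the 21 other genes checked in this way, the genes next in line and the 7 others listed by name above, only Acta2 changed sign. It stood at -0.017 with the tissue covariates and at -0.0019 without the pituitary arrays. Genes named only as members of a list did not enter this check. Of 1790 list medians under alternatives, 128 moved by more than the spread between replicates. The cause of these changes was not tested, except that leaving out arrays and blocks reduces the arrays or degrees of freedom. Signal at the top of the scale limits Sftpc.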

Other observations

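Some values outside the lists of called genes stood out and are given without a test of their own. Cyp26b1, which encodes an enzyme that clears retinoic acid, read 12.02, 11.51 and 10.52 on PBS control replicates 1 to 3 and 12.50, 13.61 and 14.21 on inhibitor replicates 1 to 3. Its difference of 2.09 ± 0.54 did not pass (limma adjusted p = 0.324), and the same-numbered arrays differed by 0.48, 2.10 and 3.69. In bleomycin lungs Cyp26b1 rose by 1.49 ± 0.42 (adjusted p = 0.016).

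Interleukin 1 beta (Il1b) read 13.06 on PBS control replicate 1 and 9.62 to 10.60 on the 5 other PBS arrays, and the chemokine gene Cxcl2 read 7.52 on that array and 5.16 to 5.49 on the others. The eosinophil granule genes Epx and Prg2 stood at 0.35 ± 0.10 and 0.67 ± 0.20 with the inhibitor in PBS lungs, neither called (adjusted p = 0.342 and 0.401), and rose by 0.37 ± 0.07 and 1.26 ± 0.15 in bleomycin lungs. The transcription factor gene Klf4 read 12.85, 12.91 and 13.04 in PBS controls and 13.41, 13.56 and 13.48 with the inhibitor (0.55 ± 0.15, adjusted p = 0.334).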
